A study of Homo sapiens with 3 samples.

Results

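Expression of SREBF1 and of the genes for fatty acid synthesis and desaturation was compared between 2 clones of the human glioblastoma cell line U-87MG (U87). The 10 genes were SREBF1, FASN, ACACA, ACLY, SCD, SCD5, ELOVL6, FADS1, FADS2 and FADS3, out of 25006 genes that the array probes named. They were chosen by name, and every non-control probe that carries a RefSeq transcript of one of them was used, which gave 15 probes. Both clones were U87 cells stably transfected with the insulin-like growth factor 1 receptor (IGF1R) fused to green fluorescent protein. U87WT 5 (U87WT) carried the wild-type receptor, GFP-IGF1R, labeled as nuclear. U87Mut 5 (U87Mut) carried GFP-IGF1R1025x-1100x-1120x, in which 3 lysines that take up SUMO had been replaced, labeled as non-nuclear. Each clone was grown with serum and then spent 24 h in FBS-free medium, with 50 nM IGF1, or with 50 nM IGF1 and OSI906, an inhibitor of IGF1R and the insulin receptor. The OSI906 dose was 0.5 μM in the sample title and 500 μM in the medium label of the same sample. On each of 3 two-color Agilent arrays, 1 per condition, Cy5 marked the RNA of U87WT and Cy3 that of U87Mut. Each genotype is 1 clone, no parental U87 sample was analysed here, no condition was repeated and no dyes were swapped. The wild-type or mutant receptor, the clone and the dye therefore cannot be told apart in any value below.

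SREBF1 encodes SREBP-1, a transcription factor made as a precursor in the endoplasmic reticulum. When sterols and certain fatty acids are low, SCAP carries the precursor to the Golgi, proteases release its amino-terminal part, and this part enters the nucleus and switches on genes of lipid synthesis. ACLY makes cytosolic acetyl-CoA from citrate, ACACA (acetyl-CoA carboxylase) turns it into malonyl-CoA, and FASN (fatty acid synthase) builds palmitate from both. ELOVL6 lengthens palmitate to stearate, SCD and SCD5 place the first double bond in saturated chains, and FADS1 and FADS2 desaturate polyunsaturated chains further. FADS3 belongs to the same family and acts on sphingoid bases. Gliomas are known to make their own fatty acids downstream of growth factor receptors. The level of SREBF1 RNA does not report how much of the protein is processed.

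SREBP-1 binds sterol response elements and E-boxes in promoters, usually beside NF-Y and Sp1, which bind CCAAT and GC boxes. RefSeq promoters (GRCh38.p14), reaching from 250 bases before to 50 bases after an annotated start, were found for 9 of the 10 genes in 13 entries, and none was listed for FASN. The 250 bases before the start are given for the regulator itself, for SCD, whose clone ratio was the highest, and for FADS1, where the SRE core stood. They run 5′ to 3′ on the strand of the gene, from the minus strand of chr17:17836987-17837236 for SREBF1, the plus strand of chr10:100346983-100347232 for SCD and the minus strand of chr11:61817004-61817253 for FADS1. Capitals mark the SRE core TCACNCC, the E-box CACGTG and the NF-Y box CCAAT, each read on both strands.
SREBF1: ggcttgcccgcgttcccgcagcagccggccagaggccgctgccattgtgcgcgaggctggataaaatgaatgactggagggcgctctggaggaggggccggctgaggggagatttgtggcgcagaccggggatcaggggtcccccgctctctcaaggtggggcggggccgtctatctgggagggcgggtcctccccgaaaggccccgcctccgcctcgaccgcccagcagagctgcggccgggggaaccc
SCD: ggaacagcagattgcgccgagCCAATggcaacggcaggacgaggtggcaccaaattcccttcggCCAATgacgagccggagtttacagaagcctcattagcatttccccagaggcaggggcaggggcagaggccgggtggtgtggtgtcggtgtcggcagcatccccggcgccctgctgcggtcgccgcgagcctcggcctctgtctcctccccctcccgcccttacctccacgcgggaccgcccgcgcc
FADS1: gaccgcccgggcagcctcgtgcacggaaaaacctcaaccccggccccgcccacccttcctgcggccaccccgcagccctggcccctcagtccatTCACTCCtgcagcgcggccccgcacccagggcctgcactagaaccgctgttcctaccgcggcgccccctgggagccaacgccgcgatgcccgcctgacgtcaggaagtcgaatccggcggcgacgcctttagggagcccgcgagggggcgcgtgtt
The SREBF1 sequence, from the only entry listed for this gene, holds none of these 3 motifs, and any other start of the gene was not examined. SCD holds 2 CCAAT boxes, which begin 229 and 186 bases before the start, and FADS1 holds 1 SRE core, 156 bases before it. Among all 13 entries, the SRE core was matched in FADS1 alone and the E-box in none. Of 35116 human promoters of the same length, 15.5% hold the SRE core, 7.26% the E-box and 34.6% the NF-Y box. CCAAT was also matched in 1 or more entries of ACACA, ACLY, SCD5, FADS2 and FADS3. The shares above are of single promoters, whereas ACACA has 3 entries and ACLY and FADS2 have 2 each. The FADS2 match lies after the start. The motif matches are matches of letters and not shown to be sites.

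All 10 genes had a probe that was well above background in all 6 channels, as marked by the scanner software. This held for 13 of the 15 probes; the other two were SCD5 probes, well above background in 1 of 6 and in 0 of 6 channels. Spots marked as not uniform or as outliers numbered 0 among the member spots on every array. The U87 markers VIM, CD44, NES, TNC and CHI3L1 were well above background in all 6 channels, while SOX2 and GFAP were in none. The mark alone does not establish expression, since 1 or more markers of leukocytes, endothelium, epithelium, oligodendrocytes and neurons also met it in all channels. So did CDKN2A, which is deleted in U87. Of these markers the neuronal RBFOX3 and CDKN2A were the brightest, with mean log2 intensities of 9.04 and 7.79, and the others lay from 6.09 to 6.84. The brightest SCD5 probe had 7.75. The 10 spots of each of 300 probes gave a median SD of the log2 ratio of 0.0459, 0.0520 and 0.0493 on the FBS-free, IGF1 and OSI906 arrays, which covers spotting only. IGF1R itself had log2 ratios of 0.07, 0.23 and 0.09 on these arrays, and both clones carry a copy of it.

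The clone ratio, the log2 of U87WT over U87Mut, was above 0 for 8 of the 10 genes on all 3 arrays by their brightest probe. ELOVL6 and FADS3 were the exceptions, with ratios below 0 on all 3. Of the 27667 probes well above background, 25.8% were above 0 on all 3 arrays and 27.3% below. With median centring of the arrays in place of loess, 6 of the 10 lay above 0 in FBS-free medium, 10 with IGF1 and 8 with OSI906. In FBS-free medium, 3 of the 15 probes were above 0.5, a size limit without a test, against 2.42% of all probes and 4.78% of those well above background. With IGF1 there were 6, against 2.87% and 5.46%, and with IGF1 and OSI906 there were 5, against 2.24% and 4.59%. Below -0.5 were 0 member probes on every array, against 2.27%, 1.77% and 2.00% of all probes in the same order and 4.71%, 3.67% and 4.20% of those well above background. With the background fit on all spots FADS3 lay at -0.53 on the IGF1 array. In the deposited table FADS3 lay there at -0.60 and ELOVL6 at -0.51, and with median centring they lay at -0.58 and -0.63 in FBS-free medium. The median ratio of the 10 brightest probes was 0.39 in FBS-free medium, 0.60 with IGF1 and 0.49 with OSI906, while the median of all probes was 0 on each array. Over all 15 member probes the median was lower, at 0.15, 0.40 and 0.30 in the same order. A lower level in bulk RNA cannot be told apart from fewer cells that make the RNA.

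**Figure D1:**
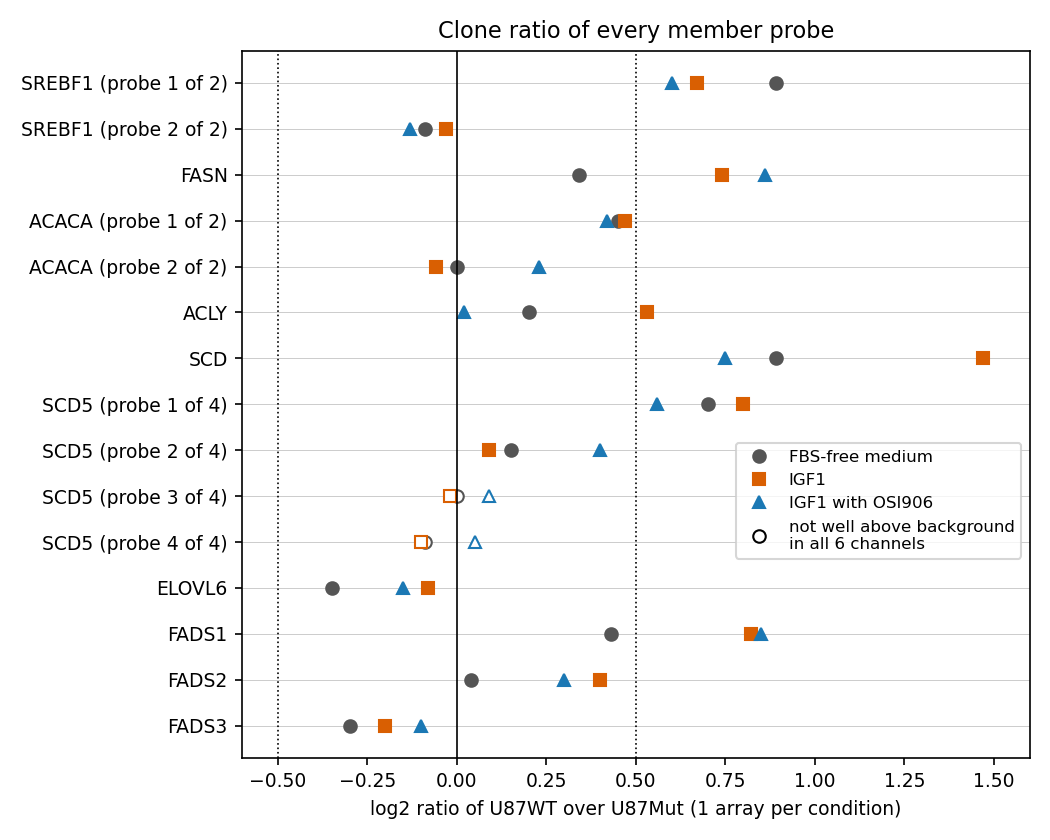
Log2 ratio of U87WT over U87Mut for each of the 15 member probes on the 3 arrays (1 point per array, open where a probe was not well above background in all 6 channels, dotted lines at 0.5 and -0.5). SCD reached 1.47 on the IGF1 array, no probe lay below -0.5 in this processing, and the second probes of SREBF1 and ACACA lay near 0.

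Across the 3 arrays, limma called 6 of the 15 probes higher in U87WT, 1 each of SREBF1, FASN, ACACA, SCD, SCD5 and FADS1, and 0 lower, at a Benjamini-Hochberg adjusted p under 0.05 over 58174 probes. Of all probes 4.29% were called higher and 4.12% lower, and of the 27667 probes well above background 8.63% and 8.55%. The test takes the 3 conditions as if they were replicates, so responses to IGF1 or OSI906 add to its error. It called 3 of the member probes (SREBF1, ACACA and SCD) when the background fit included the spots marked as not uniform. It called 0, and 0 of all probes, without the OSI906 array. Without the FBS-free array it called 4 (SREBF1, FASN, ACACA and FADS1).

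SREBF1, the transcription factor, lies on chromosome 17 (17811334 to 17836986, GRCh38.p14, as all positions here). Its bright probe had normalized log2 intensities in U87WT of 13.94 in FBS-free medium, 13.52 with IGF1 and 13.61 with OSI906. In U87Mut they were 13.06, 12.85 and 13.01. The ratios were 0.89, 0.67 and 0.60, or 1.85-, 1.59- and 1.52-fold. Their mean was 0.72 ± 0.065 (SE, 3 arrays; 95% interval 0.55 to 0.89; limma adjusted p = 0.00886), and 1.55% of the probes well above background had a higher mean. The study listed SREBF1 from these same samples, so it is no independent case. A dim probe with the same transcript did not share the difference. Its levels were 7.51, 7.82 and 7.55 in U87WT and 7.61, 7.85 and 7.68 in U87Mut, and its mean ratio was -0.08 ± 0.038 (limma adjusted p = 0.307). Where on the transcript each probe lies was not examined.

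FASN, which carries out the synthesis of palmitate, lies on chromosome 17 (82078338 to 82098236) and had 1 probe. Its levels in U87WT were 10.81, 10.70 and 10.75 in the order FBS-free, IGF1 and OSI906, and in U87Mut 10.47, 9.96 and 9.89. U87WT was above U87Mut throughout, and the gap was smallest in FBS-free medium, with ratios of 0.34, 0.74 and 0.86. The mean was 0.65 ± 0.11 (limma adjusted p = 0.0348).

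ACACA, which makes malonyl-CoA, lies on chromosome 17 (37084992 to 37406836). Its bright probe read 12.32, 12.03 and 11.91 in U87WT and 11.88, 11.56 and 11.49 in U87Mut. The ratios of 0.45, 0.47 and 0.42 were the most even among the 6 called members but stayed under 0.5. Their mean was 0.44 ± 0.034 (limma adjusted p = 0.00663). The dim second probe gave 0.00, -0.06 and 0.23, with a mean of 0.05 (limma adjusted p = 0.722).

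ACLY, which supplies acetyl-CoA, lies on chromosome 17 (41866917 to 41930545) and was not called. U87WT read 10.21, 10.27 and 9.69, and U87Mut 10.01, 9.75 and 9.67, so that the levels overlapped. Its ratio passed 0.5 with IGF1 only, at 0.53, against 0.20 in FBS-free medium and 0.02 with OSI906 (mean 0.25 ± 0.10, limma adjusted p = 0.27).

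SCD, the main desaturase of saturated chains, lies on chromosome 10 (100347233 to 100364826) and had the highest mean ratio of the 10 genes. U87WT read 10.25, 10.43 and 10.44, and U87Mut 9.36, 8.96 and 9.69. The U87WT levels lay close together, and the U87Mut level was lowest with IGF1. The ratios were 0.89, 1.47 and 0.75, or 1.85-, 2.77- and 1.68-fold. Their mean was 1.04 ± 0.15 (SE, 3 arrays; 95% interval 0.65 to 1.43; limma adjusted p = 0.0242), and 0.492% of the probes well above background had a higher mean.

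SCD5, a second stearoyl-CoA desaturase, lies on chromosome 4 (82629539 to 82798796) and had 4 probes. The brightest, for the transcript NM_001037582, read 8.13, 8.31 and 7.83 in U87WT and 7.43, 7.51 and 7.28 in U87Mut. The ratios were 0.70, 0.80 and 0.56, with a mean of 0.69 ± 0.057 (limma adjusted p = 0.0078). The other three probes name the transcript NM_024906. The one well above background in all channels had ratios of 0.15, 0.09 and 0.40 (mean 0.21, limma adjusted p = 0.175). The ratios of the dim ones lay from -0.10 to 0.09.

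The genes FADS1 (61799627 to 61817003), FADS2 (61816203 to 61867354) and FADS3 (61873526 to 61892224) stand in a row on chromosome 11, where FADS1 and FADS2 overlap by 801 bases and FADS3 begins 6171 bases after FADS2. Whether a probe lies in the overlap was not examined. Their clone ratios differed in size and sign. FADS1, the delta-5 desaturase, read 12.02, 11.96 and 12.06 in U87WT and 11.59, 11.14 and 11.20 in U87Mut. The ratios of 0.43, 0.82 and 0.85 had a mean of 0.70 ± 0.095 (limma adjusted p = 0.0211). FADS2, the delta-6 desaturase, read 8.24, 8.32 and 8.13 in U87WT and 8.20, 7.93 and 7.84 in U87Mut. Its ratios of 0.04, 0.40 and 0.30 ran in the same direction without a call (mean 0.25 ± 0.076, limma adjusted p = 0.159). FADS3 read 9.75, 10.02 and 10.29 in U87WT and 10.05, 10.22 and 10.39 in U87Mut. Its ratios of -0.30, -0.20 and -0.10 gave a mean of -0.20 ± 0.049 (limma adjusted p = 0.0937), and the study listed this gene too.

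ELOVL6, the elongase of palmitate, lies on chromosome 4 (110045846 to 110199202). It read 9.67, 9.83 and 9.43 in U87WT and 10.03, 9.91 and 9.58 in U87Mut. Its ratios were -0.35, -0.08 and -0.15 (mean -0.19 ± 0.062, limma adjusted p = 0.171). In order of mean ratio the genes ran SCD, SREBF1, FADS1, SCD5, FASN, ACACA, ACLY, FADS2, ELOVL6 and FADS3. The intervals of SREBF1, FADS1, SCD5 and FASN overlapped one another widely.

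**Figure D2:**
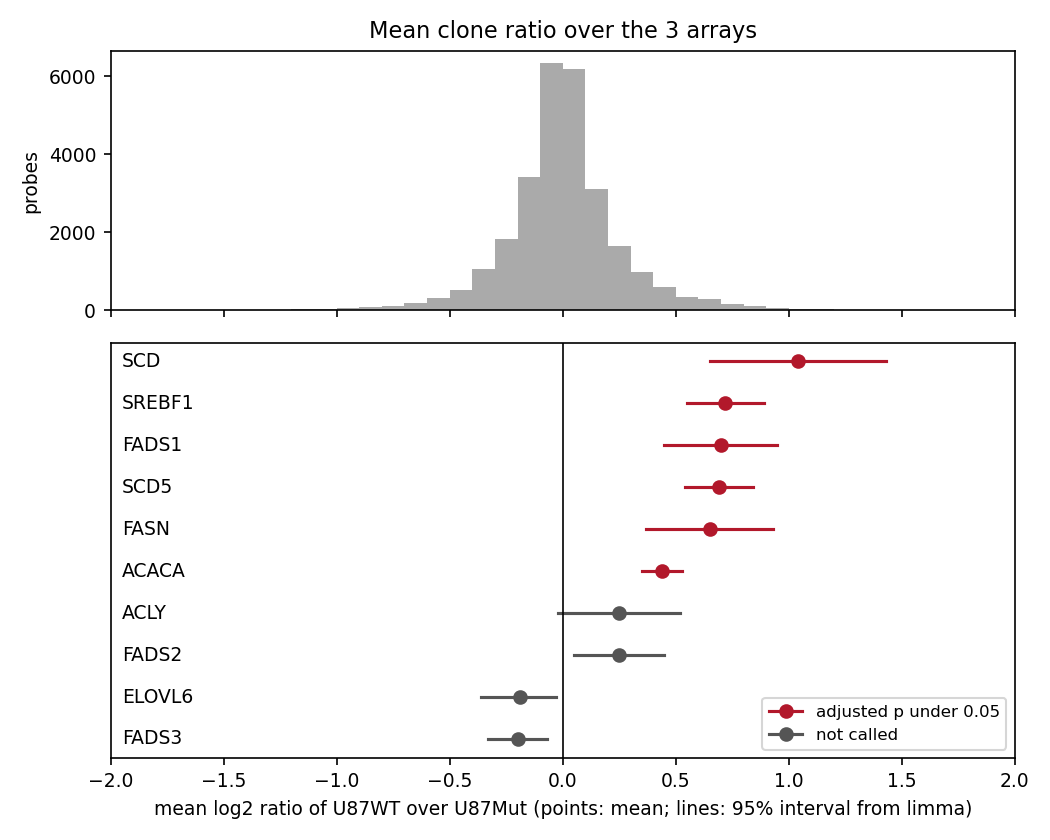
Above, number of probes well above background in bins of the mean log2 ratio of U87WT over U87Mut over 3 arrays; below, the mean (points) and 95% limma interval (lines) for the brightest probe of each member, red where called. The 6 called genes run from 0.44 for ACACA to 1.04 for SCD, and FADS3 has the lowest mean, at -0.20.

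Each clone was next compared with itself between conditions, within its own dye, as the difference of normalized log2 intensity. Both dyes of an array were normalized together, so the differences of the 2 clones share the arrays and are not separate measurements. With 1 channel per clone and condition these differences have no test, and the SD over all probes well above background was 0.268 in U87WT and 0.218 in U87Mut for IGF1 against FBS-free medium. Of the 13 member probes well above background, 0 differed by over 0.5 in U87WT, against 2.08% of all such probes above 0.5 and 2.26% below -0.5. In U87Mut 1 did, FASN, at -0.51, where 0.914% of all such probes lay above 0.5 and 1.20% below -0.5. Of the 13, 10 lay below 0 in U87Mut, with a median of -0.21, and 6 lay below 0 in U87WT, with a median of 0.06. The median of all such probes was -0.01 in U87Mut and 0.01 in U87WT.

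By gene, the differences in U87Mut with IGF1 were -0.51 for FASN, -0.44 for FADS1, -0.40 for SCD, -0.31 for ACACA, -0.27 for FADS2, -0.26 for ACLY, -0.21 for SREBF1 and -0.11 for ELOVL6. SCD5 stood at 0.09 and FADS3 at 0.17. In U87WT, SREBF1 at -0.42 and ACACA at -0.29 were the lowest, and FADS3 at 0.27 was the highest. SCD stood at 0.18 in U87WT, on the other side of 0 from U87Mut. The side of 0 in U87WT depended on the processing. With the background fit on all spots, 9 of the 10 brightest probes lay below 0 in U87WT (median -0.21) against 4 here (median 0.07), and SCD was at -0.22 in U87WT and -0.18 in U87Mut.

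With OSI906 added to IGF1, ACLY in U87WT differed by -0.58 from IGF1 alone, the only member probe past 0.5 in that clone, where 3.82% of the probes well above background lay above 0.5 and 3.05% below -0.5. In U87Mut the only one was SCD, at 0.73, where 1.53% lay above 0.5 and 0.943% below -0.5. SCD in U87WT stood at 0.01. SREBF1 differed by 0.09 in U87WT and 0.16 in U87Mut, and FASN by 0.04 and -0.07. ELOVL6 stood at -0.41 and -0.34, SCD5 at -0.48 and -0.24, and FADS3 at 0.27 and 0.17. With the background fit on all spots, 0 member probes passed 0.5 in either clone. SCD5 was then at 0.11 in U87WT and FADS3 at -0.01 in U87Mut.

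**Figure D3:**
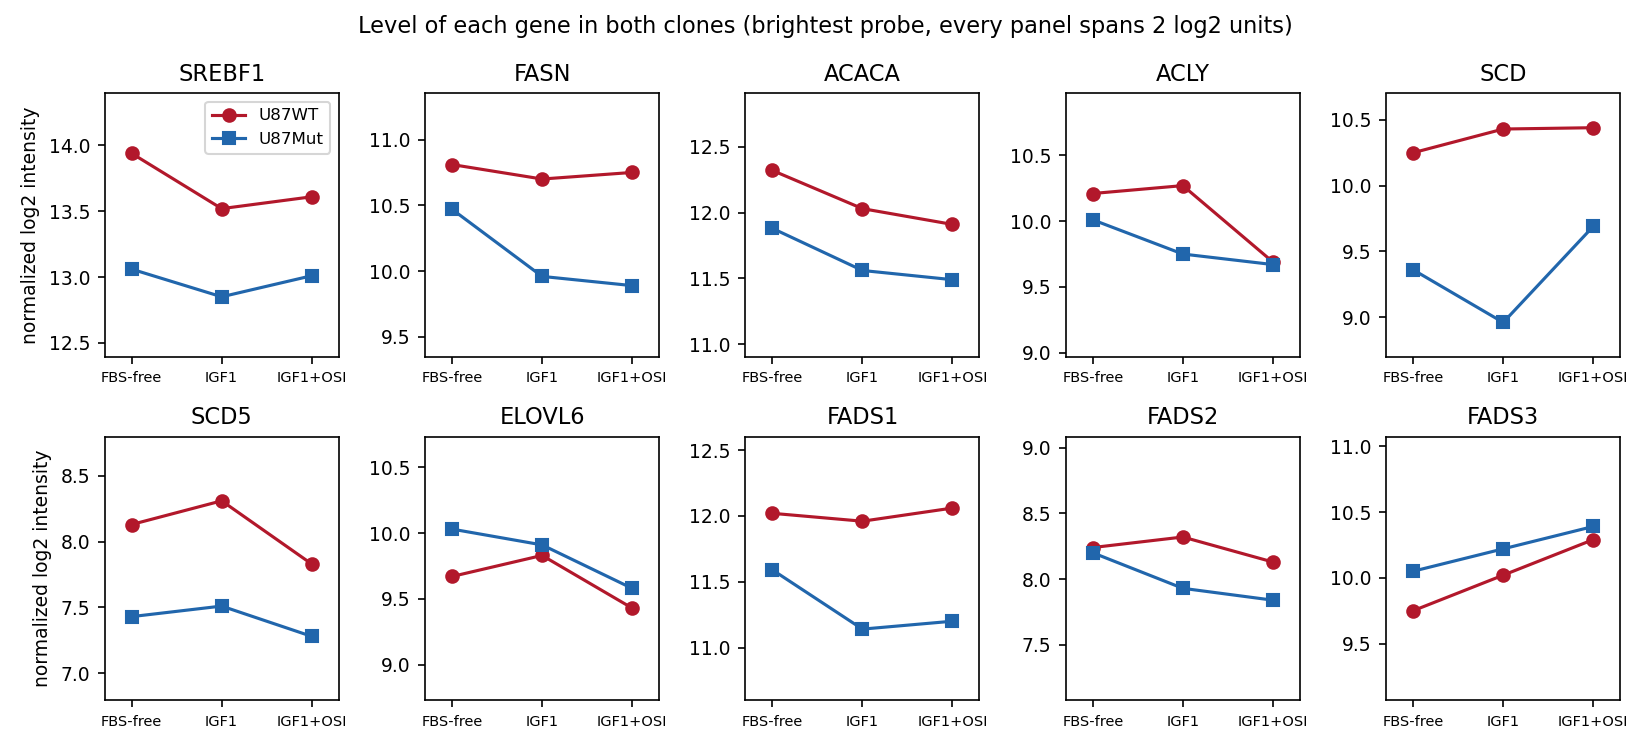
Normalized log2 intensity of the brightest probe of each gene in U87WT (red circles) and U87Mut (blue squares) in FBS-free medium, with IGF1 and with IGF1 and OSI906, 1 channel per point and no error bars since no condition was repeated. The U87Mut level of SCD runs from 9.36 to 8.96 and 9.69 while U87WT stays between 10.25 and 10.44, and ACLY in U87WT goes from 10.27 to 9.69.

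On the IGF1 array the ratios moved with the processing. This array had 572 spots marked as not uniform, and including them in the background fit lowered the ratio of SCD there from 1.47 to 0.84, of SCD5 from 0.80 to 0.18 and of ACLY from 0.53 to 0.08. SREBF1 went from 0.67 to 0.80. Median centring of the array in place of loess gave 1.87 for SCD and 1.31 for SREBF1, and put FADS3 at 0.23. The median of probes of like brightness moved too, for FASN from 0.01 to -0.31 with the fit on all spots and to 0.46 with median centring. For SREBF1, ACACA and FADS1 it went from 0.01 to 0.04 and 0.61. After the median of about 2767 probes of like brightness was taken off, SCD stood at 1.46, 1.15 and 1.41 in the 3 ways of processing. SREBF1 stood at 0.66, 0.76 and 0.70, FASN at 0.73, 0.64 and 0.72, and FADS3 at -0.21, -0.21 and -0.23. SCD5, the dimmest of the called genes, still differed, at 0.78, 0.25 and 0.79. So did ACACA, at 0.46, 0.28 and 0.40, and FADS1, at 0.81, 0.58 and 0.73.

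**Figure D4:**
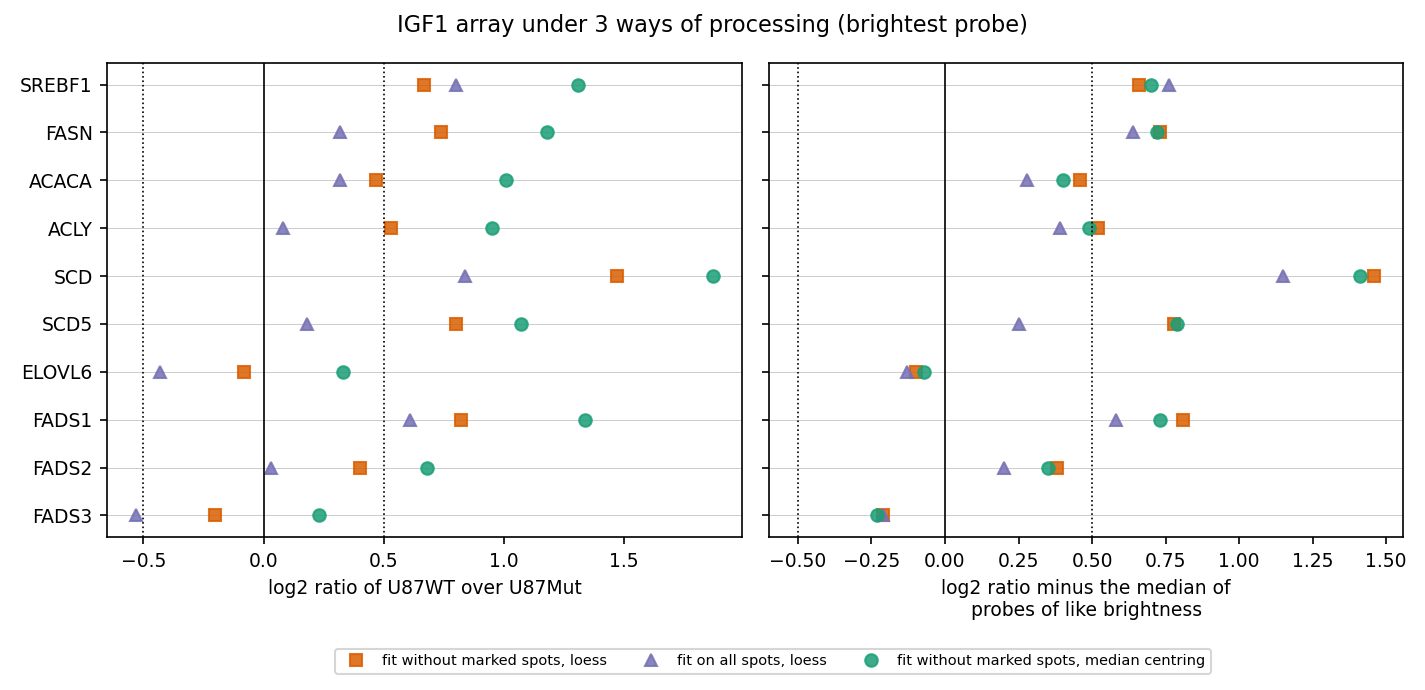
Ratio of U87WT over U87Mut on the IGF1 array for the brightest probe of each gene under 3 ways of processing, as log2 ratio (left) and minus the median of probes of like brightness (right), with dotted lines at 0.5 and -0.5. The ways spread SCD from 0.84 to 1.87 on the left and from 1.15 to 1.46 on the right.

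Other genes of the pathway were taken from a list of 50 genes in 7 roles, of which 49 had a probe and 42 a probe well above background in all 6 channels. Of the 49, limma called 7 higher in U87WT and 3 lower, and the median ratio was -0.01, 0.07 and 0 on the 3 arrays. Over all probes the median was 0 on each array, and 4.29% were called higher and 4.12% lower. Of the 27667 probes well above background, 8.63% were called higher and 8.55% lower. The counts by role below stand beside the same shares. Its named genes are those past 0.5 on all arrays and the highest and lowest of each role.

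Among the genes that process SREBP, 0 of 6 were called. INSIG1, which holds the precursor in the endoplasmic reticulum and is itself a known SREBP target, had ratios of -0.01, 0.32 and 0.45 (mean 0.25, limma adjusted p = 0.237). MBTPS1, the protease of the first cut, was the lowest of the 6, with a mean of -0.21 (limma adjusted p = 0.0663). SREBF2, the sterol-synthesis paralog, had ratios of -0.11, 0.01 and -0.05.

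Of 7 regulators of lipid synthesis with a probe, 2 were called higher and 0 lower. NR1H3, which encodes the oxysterol receptor LXRα, a known activator of SREBF1, was past 0.5 on all arrays at 1.18, 0.94 and 0.96 (mean 1.02 ± 0.059, limma adjusted p = 0.0044). USF2 was the other, with a mean of 0.28 (limma adjusted p = 0.0337). MLXIPL, the glucose-responsive factor ChREBP, was the lowest, with a mean of -0.39 (limma adjusted p = 0.0657). The partner receptor NR1H2 had no matched probe.

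For acetyl-CoA and NADPH supply, 0 of 5 were called higher and 1 lower. This was PGD, an enzyme of the pentose phosphate pathway that yields NADPH, which had ratios of -0.52, -0.48 and -0.57 (mean -0.52 ± 0.037, limma adjusted p = 0.00574). ACSS2, which makes acetyl-CoA from acetate, was the highest, at 0.32, 0.69 and 0.28 (mean 0.43, limma adjusted p = 0.0655). Of 5 genes for malonyl-CoA and mitochondrial synthesis 0 were called, with ACACB highest at a mean of 0.32 (limma adjusted p = 0.0652) and MLYCD lowest at -0.32 (limma adjusted p = 0.082).

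In the elongation cycle, 1 of 12 was called higher and 1 lower. ELOVL3 had a mean of 0.38 (limma adjusted p = 0.0144), and ELOVL7 had ratios of -0.74, -0.43 and -0.68 (mean -0.62 ± 0.070, limma adjusted p = 0.0143). Of 6 genes for the electron chain that feeds the desaturases, 3 were called higher and 0 lower. CYB5R3, the cytochrome b5 reductase, was past 0.5 on all arrays at 0.82, 0.77 and 0.85 (mean 0.81 ± 0.037, limma adjusted p = 0.00343). The cytochromes CYB5A and CYB5B had means of 0.37 and 0.41 (limma adjusted p = 0.0112 and 0.0262), and CYB5R4 was the lowest, at -0.03 (limma adjusted p = 0.933).

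Of 8 genes that activate or carry fatty acids, 1 was called higher and 1 lower. ACSL5, an acyl-CoA synthetase, had ratios of 0.65, 0.56 and 0.66 (mean 0.63 ± 0.038, limma adjusted p = 0.00458). FABP5, a fatty acid binding protein, had ratios of -0.46, -0.23 and -0.26 (mean -0.31 ± 0.057, limma adjusted p = 0.0444). The study listed both, from these samples, as lower in U87WT after IGF1, and the ACSL5 ratio with IGF1 here, 0.56, has the opposite direction. The study's lists came from its own processing and a limit of 0.5 SD, unlike the processing and limit used here. Ratios on the IGF1 array moved with the processing, and the ACSL5 ratio in the deposited table is not given here. From the same arrays the study also reported ACSL5 as higher in U87WT in basal conditions, a difference it described as lost with IGF1. The FBS-free ratio here, 0.65, has that direction. By Western blot the study found less ACSL5 protein in U87Mut than in U87WT.

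**Figure D5:**
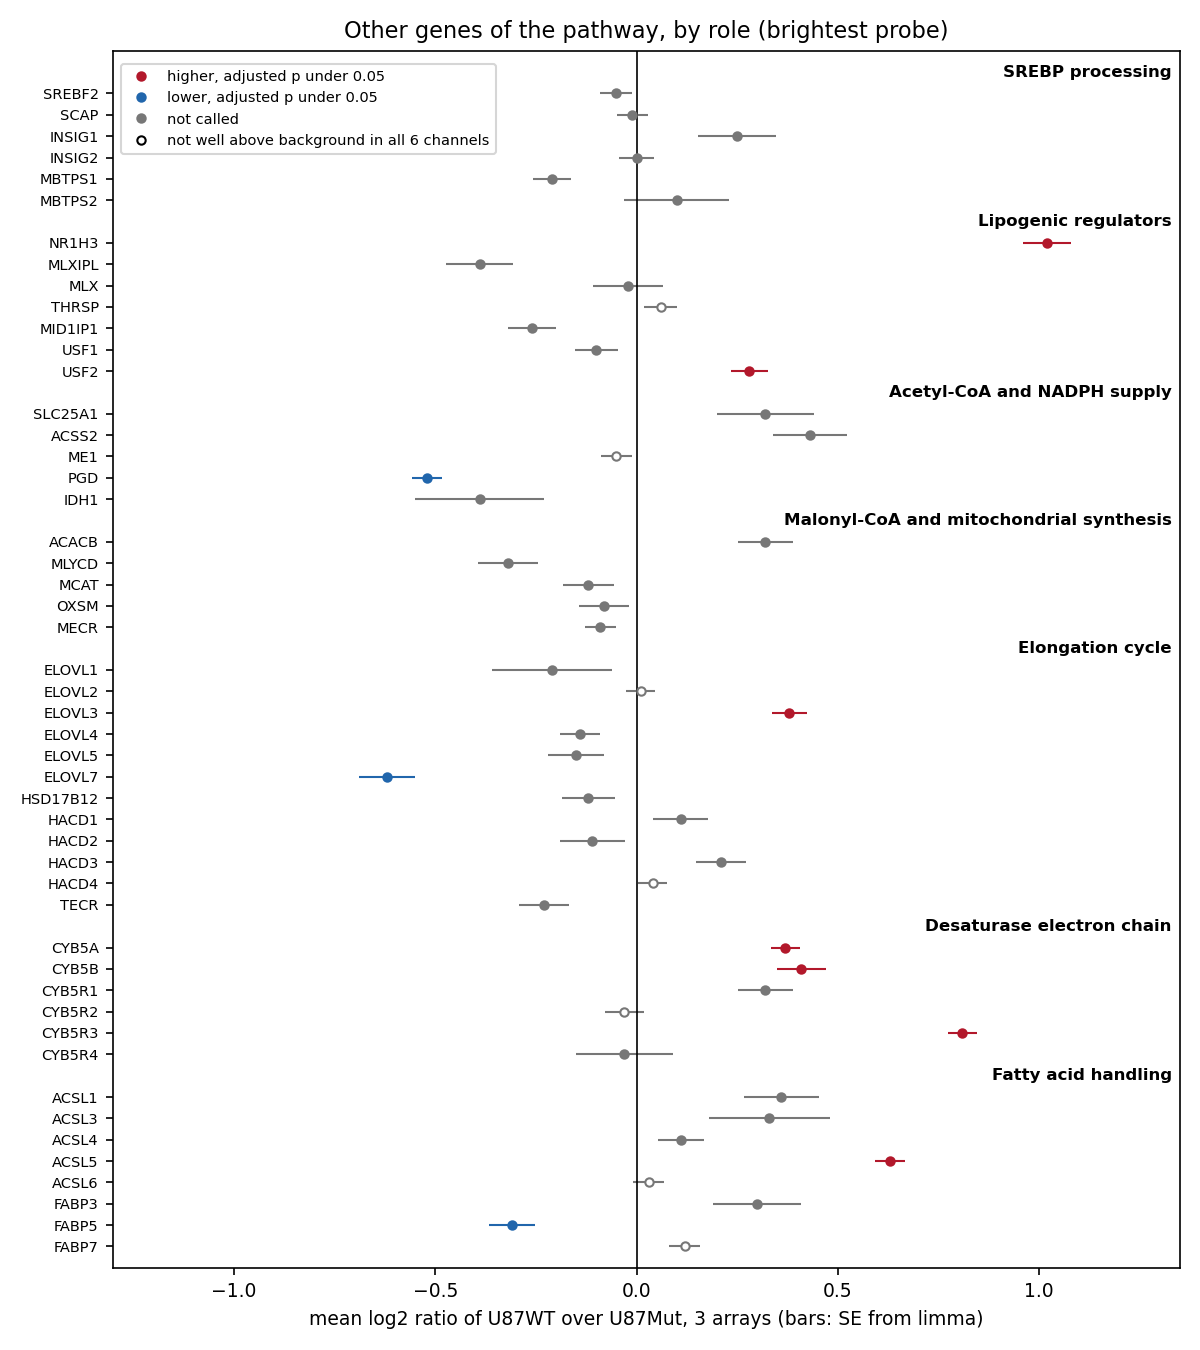
Mean log2 ratio of U87WT over U87Mut over the 3 arrays, with the limma SE, for the brightest probe of each of 49 genes of the pathway outside the members, grouped by role (red, called higher; blue, called lower; gray, not called; open, not well above background in all 6 channels). NR1H3 at 1.02 is the highest and ELOVL7 at -0.62 the lowest.

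The genes most like SREBF1 in clone ratio were sought among 15336 genes with a probe well above background in all channels, by Euclidean distance over the 3 ratios. They were MMP3 (distance 0.0439), ARHGDIB (0.0735), GAA (0.0766), STING1 (0.0786) and SOD1 (0.0809). MMP3, a matrix metalloproteinase, had ratios of 0.88, 0.63 and 0.59. SOD1, the cytosolic superoxide dismutase, had 0.82, 0.71 and 0.61. With 3 values per gene, such likeness is a description of these arrays.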

How the data were processed

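RNA of the clones U87WT 5 and U87Mut 5 was hybridized to 3 two-color Agilent arrays, 1 per condition. The deposited intensity values are the median brightness of spots and local backgrounds per channel, per the file headers from Agilent Feature Extraction 12.0.3.1, with no normalization. The same files hold processed intensities and a log10 ratio by that software. The processed intensities were used as an alternative, as log2 ratios without loess and with Aquantile between arrays, and the log10 ratio was not used. The authors also deposited a table of log2 ratios of U87WT over U87Mut, background-corrected and normalized with limma, whose values are matched by loess after normexp (offset 20, all spots) to within 0.0001 for 58341 of 58341 probes on each array.

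Intensities were processed with limma 3.58.1 in R 4.3.3. Normexp with an offset of 50 was fitted on the spots not marked as not uniform and applied to all 62976 spots, followed by loess within arrays, with weight 0 for control and marked spots. The 2075 control spots were removed, marked spots were left out, Aquantile was applied between arrays, and spots of each of 58201 probes were averaged. RefSeq transcripts named 34892 probes through the GRCh38.p14 annotation. The offset draws ratios of dim probes toward 0. Where 1 value per gene was needed, the brightest probe was taken.

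A ratio past 0.5 in size was counted per array, without a test. For the clone difference, an intercept was fitted to the 3 ratios of a probe by lmFit and moderated by eBayes in limma, and p-values were adjusted by Benjamini-Hochberg over 58174 probes, with a limit of 0.05. All arrays lay on 1 slide with 1 scan. The number of arrays limits the precision. Simulated arrays of 58201 probes held a patch of marked spots on 1 array. Its spots were drawn at random and given a high local Cy5 background, with their own brightness unchanged. With the patch left out of the background fit, the test of the clone difference recovered 99 of 100 probes changed by 0.7. It recovered 100 of 100 changed by 1, with 14 false calls. With the patch in the fit it recovered 6 and 20, with 0 false calls. Each changed probe was bright and had the same change on all 3 arrays. Every probe got noise of the same size, and no response to IGF1 or OSI906 and no dye effect was added. The counts hold for these settings and do not give the error of the calls on the real arrays.

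The members, the pathway list, the markers and the rule for named genes (all members, pathway genes past 0.5 on all arrays, each role's highest and lowest, and 5 genes most like SREBF1) were chosen with earlier results of these data known. USF2, CYB5A, CYB5B and SREBF2 are named beyond the rule, after their values were seen. A gene of the pathway list is not reported here. Alternatives covered the background correction, the normalization, the limit of 0.5, the probes, the deposited table and each array left out. A variance trend on brightness was added after seeing the data.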

Additional observations from a re-analysis of the deposited data

Results flagged for a closer look

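SCD, the main stearoyl-CoA desaturase, differed from FBS-free medium by 0.18 with IGF1 in U87WT and by -0.4 in U87Mut on the log2 scale, so that the clones lay on opposite sides of 0. The difference between the clones was not tested, since each clone has 1 channel per condition. Both values come from the same arrays, whose dyes were normalized together. With the background fit on all spots the values were -0.22 and -0.18.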

How the results depend on the processing

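The number of member probes past 0.5 was 6 on the IGF1 array, 0 of them lower, and ranged from 4 to 9. It was 4 with the background fit on all spots (1 lower) and 5 in the deposited table (2 lower), and 1 was lower with an offset of 0 and with the limit at 0.5 SD. Main counts of 3 in FBS-free medium and 5 with OSI906 became 10 and 11, of which 2 lower in each, with the limit at 0.5 SD of each array (0.113 and 0.108). The OSI906 count became 8 with an offset of 0 and 8 with the signals of the scanner software. Counted by gene, the mean of all probes gave 1 in place of 3 and 3 in place of 5. limma called 6 member probes and 4894 of all probes. These became 3 and 666 with the background fit on all spots, 0 and 452 with an offset of 0, 0 and 0 with the scanner signals (9947 of all probes and 6 member probes at an unadjusted p under 0.05), 0 and 0 with median centring (5123 and 6), and 2 and 785 with the deposited table. Leaving out 1 array gave 0 to 6 member probes and 0 to 6109 of all probes, with 1433 without the FBS-free array, 6109 without the IGF1 array, and 0 without the OSI906 array (9256 and 8 at an unadjusted p under 0.05). Of the responses past 0.5, IGF1 in U87WT went from 0 to 1 (offset 0), 1 (scanner signals), 4 (median centring) and 2 (no normalization between arrays). IGF1 in U87Mut went from 1 to 0 (all spots), 2 (scanner signals), 7 (median centring), 0 (quantile normalization) and 4 (no normalization between arrays). OSI906 in U87WT went from 1 to 0 (all spots), 2 (offset 20), 5 (offset 0), 3 (no background correction), 7 (scanner signals) and 3 (median centring). OSI906 in U87Mut went from 1 to 0 (all spots), 2 (offset 0) and 2 (scanner signals). The cause was not tested. The mean ratio over the arrays was above 0 for the same number of genes, 8 of 10, under every alternative run. Median centring moved the median of the probes well above background to -0.13, 0.20 and 0.05 on the FBS-free, IGF1 and OSI906 arrays. Without taking off these medians, 6 of 10 genes then lay above 0 in FBS-free medium and 10 of 10 with IGF1. Mean spot signals were not run, since the files used here give medians. No paired analysis was possible because the labels give no replicate numbers that groups share. The ratios already pair the clones within each array. Each value rests on 1 clone per genotype and 1 dye per clone, and signal over background limits the dim SCD5 probes.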
